A study of Mus musculus with 10 samples.

Results

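The genes encoding inhibitors of cyclin-dependent kinases (CDKs) other than p27 were examined for chromatin accessibility in neural stem cell (NSC) cultures from the mouse brain. The 6 genes are Cdkn1a, Cdkn1c, Cdkn2a, Cdkn2b, Cdkn2c and Cdkn2d. Every deposited peak whose summit lay in the body of such a gene, or within 50 kb of it, was taken (GENCODE annotation, build GRCm38). These peaks formed 68 regions, of 137454 regions with a peak in any library of the series. Of the 68, 50 had a peak in at least 2 of the 10 libraries (99231 in the series), 42 had a peak in at least 5 and were tested (70627 in the series), and 24 had a peak in all 10.

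Cell division is driven by cyclins bound to CDKs, which phosphorylate the retinoblastoma proteins and release E2F factors. The CIP/KIP inhibitors p21 (Cdkn1a), p27 (Cdkn1b) and p57 (Cdkn1c) bind cyclin-CDK complexes broadly, whereas the INK4 inhibitors p16 (Cdkn2a), p15 (Cdkn2b), p18 (Cdkn2c) and p19 (Cdkn2d) bind CDK4 and CDK6. Cdkn2a also encodes ARF, an activator of p53, from a start site and reading frame of its own, and the Cdkn2a-Cdkn2b locus is held silent in neural stem cells by Polycomb proteins.

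The assay was ATAC-seq: a transposase cuts open DNA and tags it with adapters. NSCs came from the subependymal zone (SEZ) of mice 10 weeks old, either wild type (WT) or with the p27 gene mutated (p27KO). The p27KO mice were constitutive Cdkn1b mutants. Proliferating cells (PRO) were neurospheres in EGF at 20 ng/ml plus FGF at 10 ng/ml, kept for 3 days by the labels and for longer by another passage of the study. Differentiating cells (DIFF) were plated on Matrigel with FGF for 2 days and then deprived of mitogens for 24 h in 2% serum. WT had 3 PRO and 3 DIFF libraries and p27KO had 2 of each, all from 50000 cells. The free-text descriptions of the p27KO libraries name WT cells, so genotype was taken from the titles and read against the Cdkn1b peak below.

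The lists held 57534 to 91801 peaks, and DIFF lists were shorter than every PRO list except for WT DIFF replicate 3, with 88738. The windows of the 6 genes together held 44 to 56 peaks in WT PRO libraries, 35 to 47 in WT DIFF, 51 to 52 in p27KO PRO and 39 to 43 in p27KO DIFF. The part of list length in the presence counts below was not tested except by cutting all lists to equal length. Markers set for NSCs had a promoter peak in all 10 libraries for 7 of 8 genes, against 0 of 4 for microglia, 1 of 4 for endothelial cells, 1 of 4 for oligodendrocytes and 2 of 4 for neurons. No list was a copy of another.

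Values below are MACS2 fold enrichments, the height of a peak over its local background, and their within-library percentile among the 70627 tested regions, where 100 is the highest. A region with no peak shares the lowest rank of its library, a percentile of 2.8 to 5.6 in PRO libraries and 3.9 to 14.3 in DIFF libraries. This lowest rank was higher in every DIFF library except WT DIFF replicate 3 than in any PRO library. A missing peak can thus add to a rise in DIFF. The percentile was used because the lists differ in length and carry no read counts. Differences are given as normal scores, in which 1 unit is 1 SD of the scores of all tested regions, with the standard error (SE). They were tested with limma, with Benjamini-Hochberg adjustment over all tested regions. In bulk cultures, fewer cells with an open region and less opening per cell cannot be told apart.

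Sequences of the stretches on which the results turn are shown first, with matches to 8 short motifs in capitals. The motifs were the GC box GGGCGG, the CCAAT box CCAAT, the E-box CACGTG, the AP-1 site TGANTCA, the NFI motif TTGGCA, the E2F site TTCCCGC, the SOX site ACAAAG and a pair of p53 core letters, CATGNNNNNNCATG, the last of which was added after the sequences were seen. Both strands were searched, and overlapping matches were merged in the capitals. The first 4 lines hold bases upstream of RefSeq start sites (GRCm38.p6), 5′ to 3′ on the strand of the gene. The pair from Cdkn1a is shown because its start sites differed in accessibility, and the pair from Cdkn2a because it feeds different proteins.
Cdkn1a, first start, chr17:29090729-29090978, plus strand: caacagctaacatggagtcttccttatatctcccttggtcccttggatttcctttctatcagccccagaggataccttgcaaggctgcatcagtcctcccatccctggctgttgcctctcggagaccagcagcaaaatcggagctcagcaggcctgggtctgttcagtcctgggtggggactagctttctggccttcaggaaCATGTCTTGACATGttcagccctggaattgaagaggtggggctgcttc
Cdkn1a, second start, chr17:29093519-29093768, plus strand: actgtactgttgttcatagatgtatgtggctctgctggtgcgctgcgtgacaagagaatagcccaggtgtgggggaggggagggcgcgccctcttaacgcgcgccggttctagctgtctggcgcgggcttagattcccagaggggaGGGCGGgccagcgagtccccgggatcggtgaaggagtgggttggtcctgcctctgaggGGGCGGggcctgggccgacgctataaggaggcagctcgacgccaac
Cdkn2a, Arf start, chr4:89294654-89294869, minus strand: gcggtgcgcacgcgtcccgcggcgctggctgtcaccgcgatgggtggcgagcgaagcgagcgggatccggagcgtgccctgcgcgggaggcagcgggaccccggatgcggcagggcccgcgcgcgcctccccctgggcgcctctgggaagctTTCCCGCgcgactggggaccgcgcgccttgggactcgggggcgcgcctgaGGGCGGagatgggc
Cdkn2a, Ink4a start, chr4:89282193-89282442, minus strand: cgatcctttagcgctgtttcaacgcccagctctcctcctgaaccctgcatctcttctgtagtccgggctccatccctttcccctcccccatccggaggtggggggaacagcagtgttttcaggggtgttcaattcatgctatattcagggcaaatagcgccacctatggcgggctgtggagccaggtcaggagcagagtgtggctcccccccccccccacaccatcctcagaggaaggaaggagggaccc

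The Cdkn1a first start held 1 p53 core pair and no other match. Such a pair was found in the 250 bases upstream of 0.49% of 32851 RefSeq start sites. Upstream of the Cdkn1a second start lay 2 GC boxes, present upstream of 32.7% of start sites. The Arf start, printed without its transcribed bases over 216 bases, had 1 GC box and 1 E2F letter match (E2F letters occurred upstream of 3.82% of start sites), while none of the 8 motifs was found upstream of the Ink4a start. The GC content was 60% before the Ink4a start. A match is a description of letters only. Cdkn1c was not in the promoter table.

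The next 3 stretches lie outside the promoters of the 6 genes, on the plus strand of GRCm38, and are shown because accessibility there changed with condition.
Upstream of Cdkn2b, chr4:89360327-89360626: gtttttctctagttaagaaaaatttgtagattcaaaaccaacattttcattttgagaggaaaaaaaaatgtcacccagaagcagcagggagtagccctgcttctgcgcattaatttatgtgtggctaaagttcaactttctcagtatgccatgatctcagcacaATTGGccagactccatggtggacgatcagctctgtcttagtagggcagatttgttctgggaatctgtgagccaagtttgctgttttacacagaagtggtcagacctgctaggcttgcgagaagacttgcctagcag
Upstream of Cdkn1a, chr17:29058012-29058311: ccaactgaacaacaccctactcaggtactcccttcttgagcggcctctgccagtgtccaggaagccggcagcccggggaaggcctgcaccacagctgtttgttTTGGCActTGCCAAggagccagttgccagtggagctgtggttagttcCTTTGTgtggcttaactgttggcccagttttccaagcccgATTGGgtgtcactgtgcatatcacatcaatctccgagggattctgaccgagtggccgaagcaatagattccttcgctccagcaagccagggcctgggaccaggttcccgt
Downstream of Cdkn1c, chr7:143437884-143438183: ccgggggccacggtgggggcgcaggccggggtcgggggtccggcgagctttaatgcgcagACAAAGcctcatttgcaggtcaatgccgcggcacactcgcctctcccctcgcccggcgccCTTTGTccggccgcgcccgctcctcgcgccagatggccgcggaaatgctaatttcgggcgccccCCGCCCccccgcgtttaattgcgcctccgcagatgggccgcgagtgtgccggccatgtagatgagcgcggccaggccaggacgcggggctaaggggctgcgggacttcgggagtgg

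The Cdkn2b stretch held 1 CCAAT box, a motif found in 33.7% of 70509 tested regions when 300 bases around the summit were read. The Cdkn1a stretch held 2 NFI motifs (23.4%), 1 CCAAT box and 1 SOX match (27.4%). The Cdkn1c stretch held 2 SOX matches and 1 GC box (21.1%). No AP-1 site (10.8%), E-box (5.47%), E2F site (3%) or p53 core pair (0.686%) was found in these 3 windows.

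The promoter of Cdkn1b, the targeted gene, was read first as a check of the labels. The region at chr6:134919805-134920945 had a peak in all 6 WT libraries, at a percentile of 81.5 to 86.5, and in 0 of 4 p27KO libraries. The difference was -2.75 ± 0.19 (SE) at PRO (adjusted p = 0.000198) and -2.38 ± 0.19 at DIFF (adjusted p = 0.00088, limma). The titles of all 10 libraries thus matched their peak at Cdkn1b. No other CDK inhibitor gene showed such a loss. At the Cdkn1b promoter in p27KO, DIFF minus PRO was 0.45 ± 0.20 without a peak in any library. That difference is one between lowest ranks alone.

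Accessibility of the other CDK inhibitor genes did not differ between genotypes past the adjusted threshold. Of the 42 tested regions, 0 were called in p27KO against WT at PRO, where 0.034% of all regions were called (24 of 70627), and 0 at DIFF, where 0.0156% were called (11). At an unadjusted p under 0.05 there were 1 and 3 of the 42, against 3906 and 3466 of all 70627. The interaction of genotype and condition called 0 of the 42 and 0% of all regions, with 2 of the 42 and 2760 of 70627 at an unadjusted p under 0.05. With so few calls in the background, 0 of 42 is no result about these genes, nor are the counts by unadjusted p. A region with peaks in all 4 p27KO and no WT library could not meet the limit of 5 libraries, and was not tested. One with peaks in all 6 WT and no p27KO library could. Of the 24 calls over all regions at PRO, 22 were lower in p27KO, as were all 11 at DIFF. By presence, 0 of the 50 regions had a peak in every p27KO and no WT library at PRO (2.29% of all regions), 0 in every WT and no p27KO library at PRO (0.498%), 0 in every p27KO and no WT library at DIFF (0.707%) and 0 in every WT and no p27KO library at DIFF (0.47%).

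**Figure D1:**
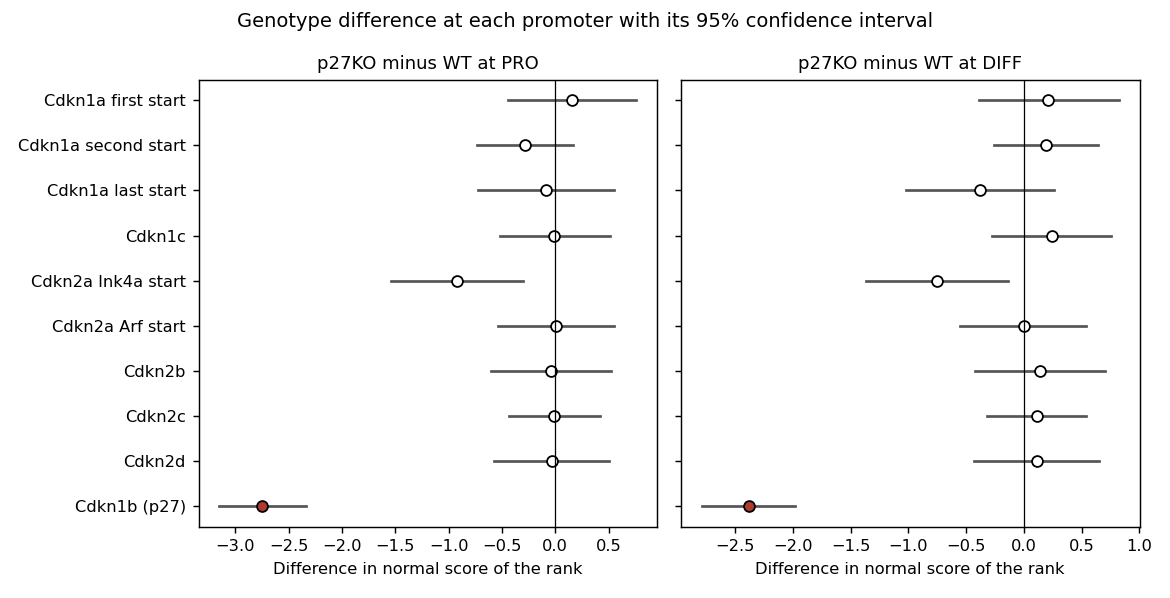
Difference p27KO minus WT in normal score (x axis, in SD of the scores of all tested regions) at each CDK inhibitor promoter and at Cdkn1b, at PRO (left) and DIFF (right), with 95% confidence intervals as lines and filled points where adjusted p was under 0.05. Cdkn1b lies at -2.75 and -2.38, and among the other promoters the interval leaves out 0 at the Ink4a start of Cdkn2a alone, where the adjusted p was 0.681 at PRO and 0.952 at DIFF.

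The Ink4a start of Cdkn2a, from which the p16 transcript is made, was the 1 of the 42 regions where the genotypes did not overlap by percentile in both conditions. The region at chr4:89281414-89282674 lies in the intron of the ARF transcript and covers the Ink4a start. Its fold enrichment was 10.1, 9.42 and 9.97 in WT PRO, 9.87, 6.06 and 9.65 in WT DIFF, 7.29 and 4.43 in p27KO PRO, and 4.29 and 7.62 in p27KO DIFF. As percentiles these were 77.2, 72.5 and 79.9 in WT PRO, 86.9, 68.0 and 75.2 in WT DIFF, 56.1 and 29.6 in p27KO PRO, and 38.5 and 61.7 in p27KO DIFF. Every p27KO library was below every WT library of its condition by percentile. By fold enrichment the groups overlapped at DIFF, where 7.62 in a p27KO library exceeded 6.06 in a WT library. The difference was -0.92 ± 0.28 at PRO (95% interval -1.54 to -0.30, unadjusted p = 0.00739, adjusted p = 0.681, limma) and -0.75 ± 0.28 at DIFF (-1.37 to -0.14, unadjusted p = 0.0211, adjusted p = 0.952). It thus failed the correction. Such a separation in both conditions was met by 1.77% of all tested regions (1248) with p27KO lower, and by 1 of the 42 (2.38%). With p27KO higher it was met by 1.29%, and by 0 of the 42. Both counts are near the shares of all tested regions and are no result about these genes. These shares are not alike in scope, since regions with peaks in p27KO libraries alone could not be tested. Without p27KO PRO replicate 2 the PRO difference was -0.59, and without p27KO DIFF replicate 1 the DIFF difference was -0.47.

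At the Arf start and the Cdkn2b promoter no such order was seen. The Arf start (chr4:89294203-89295807) was among the most accessible regions in every library, at a percentile of 88.8 to 93.2 in WT PRO, 92.2 to 98.7 in WT DIFF, 90.5 to 92.5 in p27KO PRO and 95 to 97.1 in p27KO DIFF. Its genotype difference was 0.01 ± 0.25 at PRO (95% interval -0.54 to 0.55) and -0.00 ± 0.25 at DIFF (-0.55 to 0.54). Groups of both genotypes overlapped there. The Cdkn2b promoter (chr4:89310188-89311429), source of p15, ranked at 83.5 to 96.5, with differences of -0.04 (-0.60 to 0.52) and 0.14 (-0.42 to 0.70). With summits required within 250 bp of the region's median summit, which leaves p27KO PRO replicate 2 without a peak there, the PRO difference was -1.35 (adjusted p = 0.916). A region between the Arf start and Cdkn2b (chr4:89303333-89304148) had both p27KO libraries below every WT library at DIFF, at 62.5 and 53.5 against 83.5, 78.2 and 73.4, and not at PRO. Its difference was -0.59 ± 0.24 at DIFF (unadjusted p = 0.0318, adjusted p = 0.977, limma) and 0.24 ± 0.24 at PRO (adjusted p = 0.997). The share of all tested regions that separate by genotype at DIFF alone was not counted.

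Between the Ink4a and Arf starts, the intron of Cdkn2a held a further region (chr4:89286689-89287036, 4.6 kb upstream of the Ink4a start). Its percentile was 42.9, 57.1 and 48.7 in WT PRO against 64.4 and 70.3 in p27KO PRO, without overlap and in the direction opposite to the Ink4a start. At DIFF it was 54.7, 73.4 and 60.6 in WT against 70.4 and 69.9 in p27KO, with overlap. The differences were 0.46 ± 0.21 (adjusted p = 0.907) and 0.19 ± 0.21 (adjusted p = 0.995, limma), and this region was chosen after its values were seen. The share of all tested regions that separate by genotype at PRO alone was not counted.

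**Figure D2:**
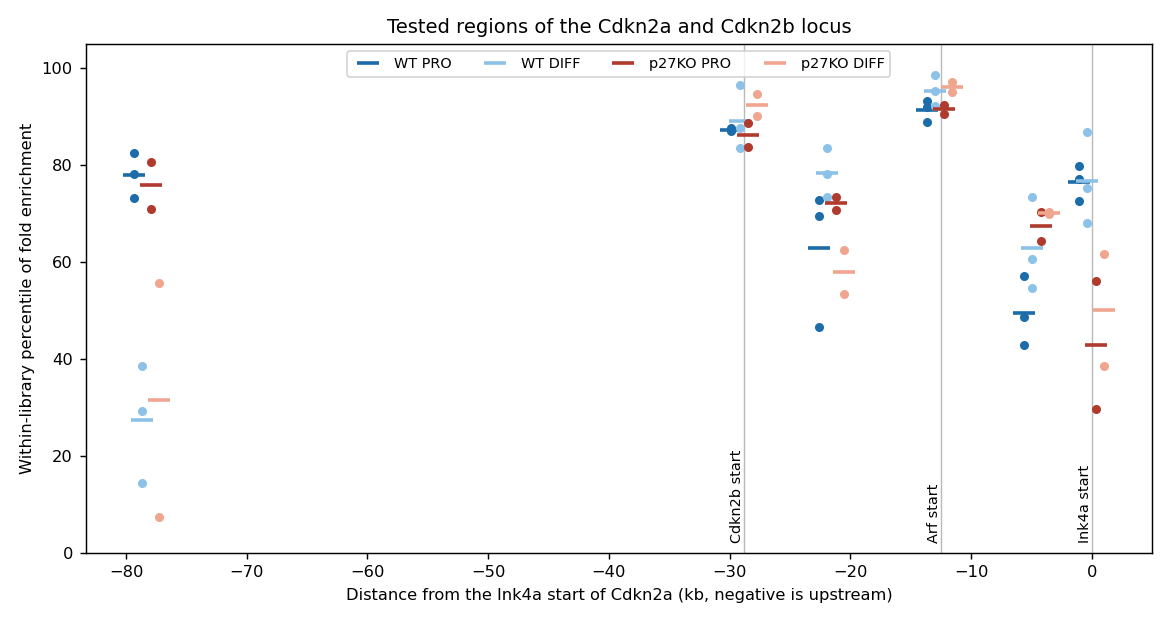
Within-library percentile of fold enrichment (y axis) of the 6 tested regions of the Cdkn2a and Cdkn2b locus against the distance of their summit from the Ink4a start (x axis, kb, negative is upstream), with points for libraries, bars for group means and groups set slightly apart in x. At the Ink4a start the p27KO points (29.6 to 61.7) lie below the WT points (68.0 to 86.9), while at the Arf and Cdkn2b starts the groups overlap, and 78.3 kb upstream the DIFF points lie below the PRO points.

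At their own promoters the 6 genes covered nearly the full range of accessibility. Over 10 libraries the mean percentile was 93.5 at the Arf start of Cdkn2a, 88.8 at Cdkn2d, 88.7 at Cdkn2b, 82.7 at Cdkn2c, 64.6 at the Ink4a start, 51.6 at Cdkn1c, 49.4 and 48.8 at the second and last starts of Cdkn1a, and 11.0 at its first start. The ranges over libraries of Arf, Cdkn2d and Cdkn2b overlapped, and that of Cdkn2c (79.0 to 87.7) overlapped those of Cdkn2d and Cdkn2b and lay below that of Arf (88.8 to 98.7). Neighbours in this order also overlapped among the Ink4a start, Cdkn1c and the second and last starts of Cdkn1a. The first start of Cdkn1a had a peak in 5 of 10 libraries, so its mean and range include lowest ranks of libraries without a peak. At 4.6 to 30.0, it overlapped only the ranges of its second start (25.3 to 63.6), last start (26.7 to 64.7) and the Ink4a start (29.6 to 86.9). The values of Cdkn1a and Cdkn1c reached 69.2, while the CIP/KIP gene Cdkn1b, at 81.5 to 86.5 in WT libraries, lay within the range of Cdkn2c.

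**Figure D3:**
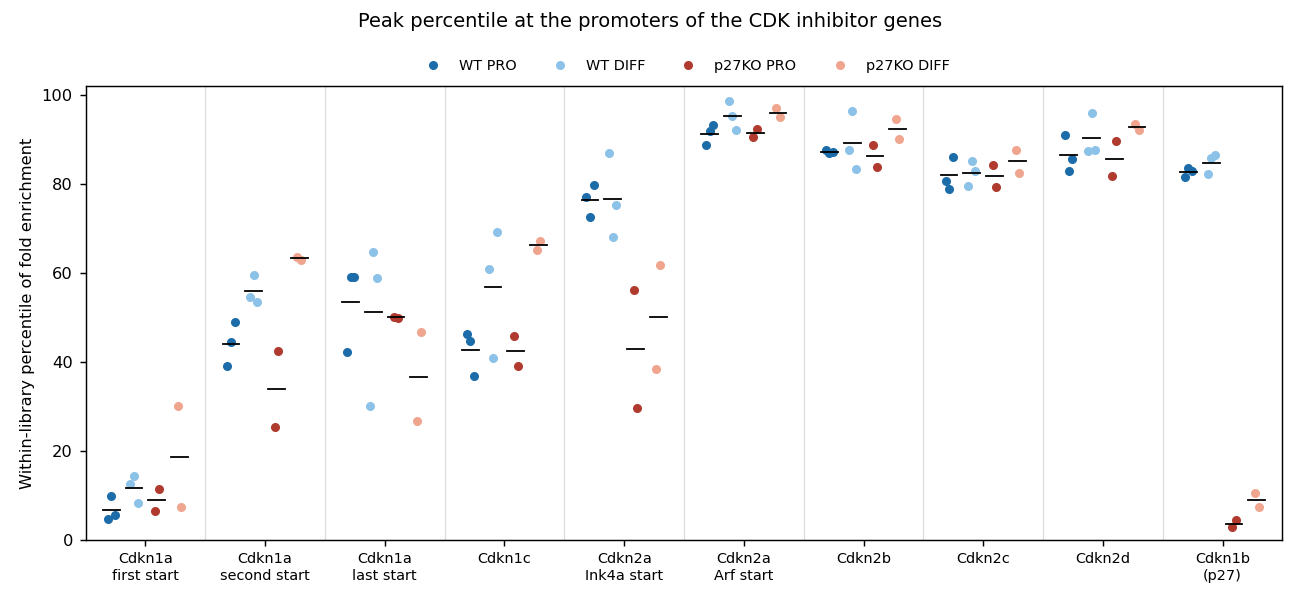
Within-library percentile of fold enrichment (y axis) at the promoter regions of the CDK inhibitor genes and of Cdkn1b, with points for libraries by group and a black bar for the group mean. The Arf, Cdkn2b, Cdkn2c and Cdkn2d promoters lie at 79.0 or above in all 10 libraries, the first start of Cdkn1a lies at 30.0 or below, and Cdkn1b drops to the lowest rank in the 4 p27KO libraries.

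Cdkn1a, which encodes the p53 target p21, is read from several start sites. At its first start (chr17:29090825-29091072) a peak was called in 5 of 10 libraries, with fold enrichments of 2.69 in WT PRO replicate 2, 2.53 in WT DIFF replicate 3, 2.77 and 3.11 in p27KO PRO and 3.57 in p27KO DIFF replicate 1. No group was without a peak. The second start (chr17:29093453-29093910) had a peak in every library. Its percentile was 39.0, 44.5 and 48.9 in WT PRO, 54.7, 59.5 and 53.5 in WT DIFF, 25.3 and 42.4 in p27KO PRO, and 63.6 and 63.0 in p27KO DIFF. By percentile every DIFF library was above every PRO library of its genotype. By fold enrichment the WT groups overlapped, at 5.3, 5.85 and 5.66 in PRO and 5.14, 5.16 and 6.47 in DIFF. The p27KO groups did not, at 4.45 and 5.52 in PRO and 6.51 and 7.71 in DIFF. The difference DIFF minus PRO was 0.30 ± 0.18 in WT (adjusted p = 0.291) and 0.77 ± 0.22 in p27KO (adjusted p = 0.0456, limma), the only call among 9 promoter regions and 5 comparisons. That call was lost in 18 of 20 other settings, with an adjusted p of up to 0.295 (without p27KO PRO replicate 1). The difference between the genotypes' changes was 0.47 ± 0.29 (unadjusted p = 0.13). At the last start, assigned to a region 2355 bp away (chr17:29094460-29095863), the values of all 4 groups overlapped, between 26.7 and 64.7.

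Cdkn1c encodes p57 and is imprinted in mice. Its promoter region (chr7:143460752-143461451) ranked at 46.2, 44.7 and 36.9 in WT PRO, 60.8, 40.8 and 69.2 in WT DIFF, 45.8 and 39.0 in p27KO PRO, and 65.2 and 67.3 in p27KO DIFF. The p27KO groups, of 2 libraries each, did not overlap, and the WT groups, of 3 each, did. Groups of 2 separate more readily than groups of 3, so overlap does not compare the genotypes. The change was 0.37 ± 0.21 in WT (adjusted p = 0.253) and 0.61 ± 0.26 in p27KO (adjusted p = 0.157, limma). The changes of the genotypes differed by 0.24 ± 0.33 (unadjusted p = 0.476, limma).

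Cdkn2c and Cdkn2d encode p18 and p19, which act on CDK4 and CDK6. The Cdkn2c region (chr4:109665115-109667273), which spans both of its start sites, ranked at 79.0 to 87.7 in all libraries, and its genotype difference was -0.01 (95% interval -0.43 to 0.42) at PRO and 0.11 (-0.32 to 0.54) at DIFF. The Cdkn2d promoter (chr9:21290862-21291794) ranked at 81.8 to 96.1, with differences of -0.03 (-0.57 to 0.50) and 0.11 (-0.43 to 0.65). Differences of up to 0.65 lie within these intervals, so equal accessibility is not shown.

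Calls in the windows of these genes came with condition and not genotype, as nearly all calls did over all tested regions. In WT, 5 of the 42 tested regions changed between PRO and DIFF, 4 lower and 1 higher, where 19.2% of all regions changed (13568). In p27KO, 5 of the 42 changed, 2 lower and 3 higher, where 12.3% of all regions changed (8695). Both counts are 11.9% of the 42, near or below the background, and are therefore no result about these genes as a group. With a peak required in all 10 libraries 0 were called in either genotype. That setting leaves out every called region but the Cdkn1a second start, so it is no check of the others. Leaving out 1 library gave 1 to 5 calls in WT (1 without WT DIFF replicate 2) and 0 to 4 in p27KO (0 without p27KO DIFF replicate 2). The median difference over the 42 was 0.13 in WT and 0.15 in p27KO, against 0.03 and 0.04 over all tested regions. In both genotypes, 5 regions had every DIFF library below every PRO library (13.3% of all tested regions) and 6 had every DIFF library above (13.4%).

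**Figure D4:**
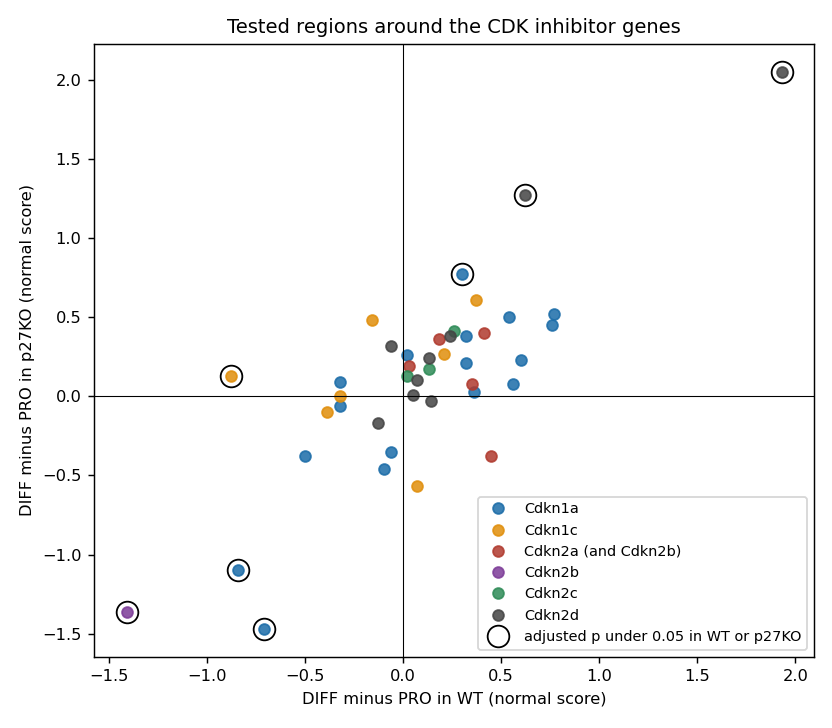
Difference DIFF minus PRO in normal score in WT (x axis) against p27KO (y axis) for the 42 tested regions around the CDK inhibitor genes, coloured by gene, with rings where adjusted p was under 0.05 in either genotype. The region upstream of Cdkn2b lies at -1.41 and -1.36, the region in Trp53cor1 at -0.71 and -1.47, and the second start of Cdkn1a at 0.30 and 0.77.

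By presence, 1 of the 50 regions had a peak in every DIFF and no PRO library of WT, where 1.86% of all regions did, and 1 of the 50 in p27KO, where 3.32% did. At the Cdkn2d promoter the change was 0.24 ± 0.22 in WT (adjusted p = 0.498) and 0.38 ± 0.27 in p27KO (adjusted p = 0.42, limma).

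A region of the Cdkn2d window, 49.9 kb downstream of its start (chr9:21241462-21241640, 2183 bp from the Keap1 start), rose in p27KO. Its percentile was 4.6, 20.9 and 16.5 in WT PRO, 27.6, 44.5 and 19.4 in WT DIFF, 7.5 and 4.5 in p27KO PRO, and 30.2 and 46.9 in p27KO DIFF. The values of 4.6 and 4.5 are the lowest ranks of libraries without a peak. The p27KO groups, of 2 libraries each, did not overlap and the WT groups, of 3 each, did, so overlap does not compare the genotypes. The difference was 1.27 ± 0.33 in p27KO (adjusted p = 0.0292) and 0.62 ± 0.27 in WT (adjusted p = 0.137, limma). The changes of the genotypes differed by 0.65 ± 0.43 (unadjusted p = 0.159, limma). The p27KO call was lost in 9 of 18 other settings, among them each one that left out a p27KO library. The region had a peak in all 5 DIFF libraries, which alone met the limit of 5 libraries for testing.

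Upstream of Cdkn2b, 49.4 kb from its start, an intergenic region (chr4:89359675-89360711) lost accessibility. Its fold enrichment was 9.43, 10.4 and 10.5 in WT PRO and 9.58 and 11 in p27KO PRO. In DIFF it was 3.29 and 5.08 in WT replicates 1 and 3 and 5.61 in p27KO replicate 1, with no peak in WT replicate 2 or p27KO replicate 2. All DIFF libraries, at a percentile of 7.4 to 55.7, were below all PRO libraries, at 71.0 to 82.4. The difference was -1.41 ± 0.35 in WT (adjusted p = 0.0165) and -1.36 ± 0.43 in p27KO (adjusted p = 0.0639, limma), and the changes of the genotypes differed by 0.05 ± 0.56. The WT call was lost without WT PRO replicate 2, WT PRO replicate 3 or WT DIFF replicate 2, with an adjusted p of at most 0.0737. The Cdkn2b promoter changed by 0.18 ± 0.23 in WT (adjusted p = 0.645).

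Around Cdkn1a, 2 regions away from its promoters lost accessibility in both genotypes. The region 32.8 kb upstream (chr17:29057903-29058365) lies in an exon of Trp53cor1, a long noncoding RNA gene induced by p53, 67 bp from the start of the unnamed gene model AC167363.1. Its percentile was 53.6, 47.0 and 36.7 in WT PRO, 35.8, 14.3 and 15.2 in WT DIFF, 52.6 and 56.9 in p27KO PRO, and 10.5 and 7.4 in p27KO DIFF, where no peak was called. No DIFF library reached a PRO library of its genotype. The difference was -0.71 ± 0.22 in WT (adjusted p = 0.0457) and -1.47 ± 0.27 in p27KO (adjusted p = 0.00552). The WT call was lost in 11 of 18 other settings and the p27KO call in 1, without p27KO DIFF replicate 2 (adjusted p = 0.0584). The interaction was -0.76 ± 0.35 (unadjusted p = 0.0536, adjusted p = 1).

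The region 29.9 kb downstream of the first Cdkn1a start (chr17:29120620-29120975) lies in coding sequence of Rab44. Its percentile was 41.0, 40.3 and 35.4 in WT PRO and 26.9 and 54.5 in p27KO PRO, against 12.5 to 14.3 in WT DIFF and 7.4 and 10.5 in p27KO DIFF. In DIFF a peak was left in WT replicate 3 alone, with a fold enrichment of 3.17. These DIFF values are at or near the lowest rank: WT DIFF replicate 3 ranked at 12.7, below replicate 2 without a peak at 14.3. The difference was -0.84 ± 0.20 in WT (adjusted p = 0.0148) and -1.10 ± 0.25 in p27KO (adjusted p = 0.0155). The calls were lost in 4 and 6 of 18 other settings. The regions of these windows called lower in DIFF all had a peak in each of the 5 PRO libraries. That alone met the limit of 5 libraries for testing. Such regions were admitted by the groups where they were high, so their calls are a description of the values.

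In the Cdkn1c window, 23.0 kb downstream of the start, an intergenic region (chr7:143437674-143438399) fell in WT. Its percentile was 67.3, 48.5 and 37.5 in WT PRO and 12.5, 31.6 and 18.0 in WT DIFF, against 34.4 and 26.3 in p27KO PRO and 40 and 30.4 in p27KO DIFF. The WT groups did not overlap, and the p27KO groups did. The difference was -0.88 ± 0.24 in WT (adjusted p = 0.0271) and 0.13 ± 0.30 in p27KO (adjusted p = 0.829). The genotypes' changes differed by 1.01 ± 0.38, with an unadjusted p of 0.0231 and an adjusted p of 1, so a difference between the genotypes did not pass the correction. The WT call was lost in 4 of 18 other settings, all of them without a WT library.

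**Figure D5:**
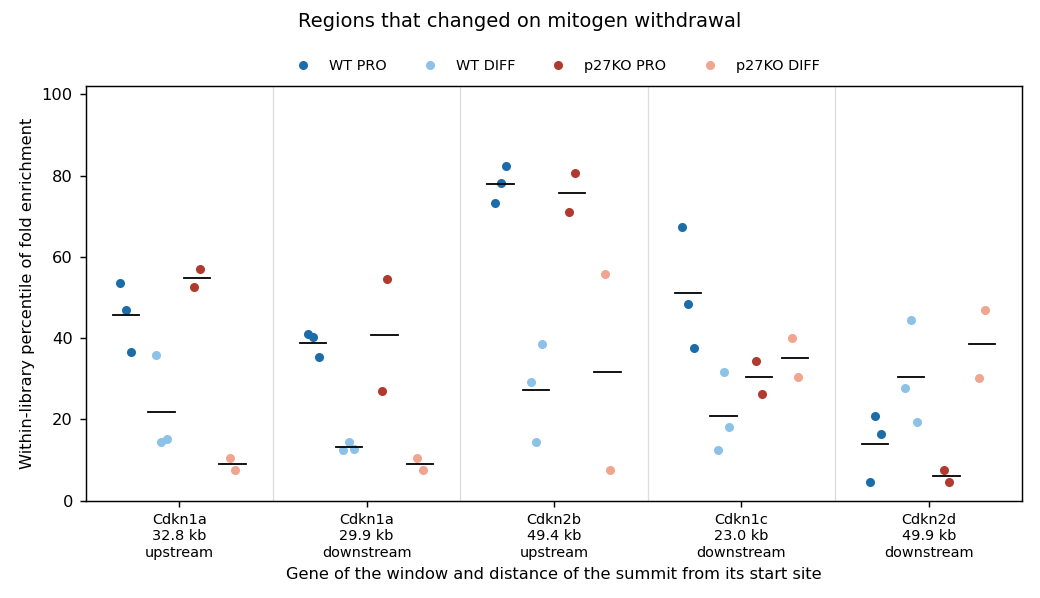
Within-library percentile of fold enrichment (y axis) of 5 regions outside the genes' own promoters that changed between PRO and DIFF in at least 1 genotype (x axis, named by gene and distance), with points for libraries by group and a black bar for the group mean. The region 49.4 kb upstream of Cdkn2b falls from at least 71.0 to at most 55.7.

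Complete loss of a peak was also counted. In WT, 3 of the 50 regions had a peak in every PRO and no DIFF library, where 4.32% of all regions did. They were a region in the Cdkn1a window (chr17:29048870-29049336), a region in Cdkn2c coding sequence (chr4:109661216-109661447) and a region in the Cdkn1c window (chr7:143505838-143506100). The fold enrichment in Cdkn2c was 2.72, 3.25 and 3 in WT PRO and 3.67 in p27KO PRO replicate 2. In p27KO, 5 of the 50 had a peak in every PRO and no DIFF library, where 10.9% of all regions did. They were the Trp53cor1 and Rab44 regions, a region 3′ of Cdkn1a (chr17:29104517-29105169), a region 3′ of Cdkn2a (chr4:89264760-89264903) and a region in an intron of Faf1 (chr4:109703548-109703796). No region was in both counts. With all lists cut to equal length the counts were 1 in WT and 2 in p27KO. The WT count was 5 without WT DIFF replicate 3, and the p27KO count was 8 without p27KO PRO replicate 1 and 10 without p27KO DIFF replicate 2.

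Among regions over 3 kb from any start site, the highest mean percentile by window was 38.3 for Cdkn1a (chr17:29062429-29063555, an intron of Trp53cor1), 68.9 for Cdkn1c (chr7:143428235-143429058), and 68.4 for Cdkn2a and Cdkn2b (chr4:89303333-89304148). The Cdkn2c window had no tested region of this kind. At the Cdkn1a and Cdkn1c regions every DIFF library was below every PRO library of its genotype, with differences of -0.50 ± 0.22 and -0.39 ± 0.18 in WT (adjusted p = 0.136 and 0.168) and -0.38 ± 0.27 and -0.10 ± 0.22 in p27KO (adjusted p = 0.425 and 0.827).

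Promoters of 40 other genes of the CDK and retinoblastoma pathway and of known regulators of these genes, the p27 gene among them, were set beside the members. Of the 40, 39 were tested. In WT, 2 were higher in DIFF, those of Ccne1, a cyclin partner of CDK2 (0.75 ± 0.20, adjusted p = 0.0205), and of E2f1, a factor bound by the retinoblastoma protein (0.57 ± 0.18, adjusted p = 0.0447), and 0 were lower. In p27KO, 0 were higher and 0 lower, with Ccne1 at 0.68 ± 0.24 (adjusted p = 0.0964, limma) and E2f1 at 0.10 ± 0.22 (adjusted p = 0.835, limma). The changes of the genotypes differed by -0.08 ± 0.31 at Ccne1 and -0.47 ± 0.28 at E2f1, and 0 of the 39 interactions were called. Between genotypes, 0 were higher, and Cdkn1b was the 1 lower promoter in each condition. The median difference DIFF minus PRO was 0.23 in WT and 0.28 in p27KO over the 39, 0.24 and 0.38 over the 9 promoter regions of the CDK inhibitor genes, and 0.11 and 0.13 over 15491 promoter regions of protein-coding genes, of which 6.1% and 3.07% were called. Against these shares, the 2 calls in WT and 0 in p27KO among the 39 are no result about the listed genes. Of the 9 promoter regions of the CDK inhibitor genes, 0 were called in WT and 1 in p27KO, which against these shares is no result about them.

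Patterns over the 10 libraries were also compared between promoters. For the Ink4a start, the promoter regions with the most alike normal scores were those shared by Atg13 and Harbi1 (Pearson's r = 0.938), of Cep112 (0.916) and of Taar9 (0.908), of 15491 compared. For the second start of Cdkn1a they were those of Kcna2 (0.956), Aak1 (0.95) and Mpp5 (0.946). For the first 3 of each of the 9 regions, r was 0.891 to 0.978. These are descriptions over 10 points that share libraries and depth, chosen as the highest of many.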

How the data were processed

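ATAC-seq peak lists of 10 libraries, 1 per sample, were used. Per the submitters' processing notes and the study's methods, the authors trimmed reads with Cutadapt and Trimmomatic, mapped them with Bowtie2 to GRCm38, marked duplicates and called narrow peaks with MACS2 per library at an FDR of 0.05; tool versions are not given in the sources used here, nor whether reads were shifted for the transposase. The deposited lists give the fold enrichment at the summit (a ratio to local background) and the −log10 p-value and −log10 q-value of each peak. They hold no read counts, so the depth of each library is unknown and no count test was possible; the background pileup that the deposited p-values and fold enrichments imply was 2.52 to 3.72 reads.

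Peaks of all lists that overlapped by at least 1 bp were merged into regions, and the highest fold enrichment per library was ranked among regions that at least 5 libraries shared. Ranks were turned into normal scores and fitted in limma 3.58.1 (R 4.3.3) on the 4 groups with 5 contrasts and Benjamini-Hochberg adjustment over 70627 regions (threshold 0.05). The script was tested on simulated data. A promoter region was the nearest region within 3 kb of a start site (GENCODE M21, start sites within 500 bp joined). Nothing in the labels says that replicates came from separate animals, although the design text calls them biological, so p-values measure the spread between these samples. Same-numbered PRO and DIFF samples correlated in their deviations by 0.0575, 0.0647 and 0.0328 in WT, and differently numbered ones by -0.0508 to -0.00477. In p27KO the values were -0.141 and 0.141, which mirror each other because each group has 2 libraries. These values do not settle whether the numbers mark pairs. The main fit did not take them as pairs, and a replicate block was fitted as an alternative.

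Named were Cdkn1b, each promoter region, each region past the threshold or a presence rule, the highest distal region of each window and a list of 40 pathway genes. A region of the Cdkn2d window is counted but not reported here. Members and lists were chosen with earlier results of these data known. Alternatives changed the ranking column, region filter, list length, q-value, summit distance, groups fitted, replicate block, scale, window and libraries. Python with pandas, numpy and matplotlib was used for the rest.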

Additional observations from a re-analysis of the deposited data

Results flagged for a closer look

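A region between the Arf start and Cdkn2b (chr4:89303333-89304148, intergenic, 7284 bp from the Cdkn2b start) moved in opposite directions in the genotypes by percentile. The region's PRO and DIFF percentiles did not overlap in either genotype. Its percentile was 72.8, 46.5 and 69.6 in WT PRO and 83.5, 78.2 and 73.4 in WT DIFF, so that every WT DIFF library was higher. It was 73.5 and 70.7 in p27KO PRO and 62.5 and 53.5 in p27KO DIFF, so that every p27KO DIFF library was lower. By fold enrichment the WT groups overlapped, at 9.4, 5.98 and 8.14 in PRO and 9.11, 7.64 and 9.31 in DIFF. The difference was 0.45 ± 0.21 in WT (adjusted p = 0.176) and -0.38 ± 0.26 in p27KO (adjusted p = 0.406), and the interaction was -0.83 ± 0.34 with an unadjusted p of 0.0319 and an adjusted p of 1 (limma), so it did not pass the correction. The region was picked by this order of its groups, and the share of all regions with such an order was not counted. No cause was tested.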

How the results depend on the processing

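With a peak required in all 10 libraries, and likewise on log2 fold enrichment in those regions, 0 regions were called in WT and 0 in p27KO (5 and 5 in the report). The called regions other than the Cdkn1a second start lacked a peak in at least 1 list. With a window of 10 kb, 0 were called in WT and 1 in p27KO. In p27KO, 3 were called when ranking by −log10 p-value, with a peak in at least 2 libraries and with only the compared groups. The own-promoter call (1 in the report) became 0 when ranking by −log10 p-value, with a peak in at least 2 or in all 10 libraries, with summits within 250 bp, with only the compared groups, with the replicate block and on log2 fold enrichment. Leaving out 1 library gave 1 to 5 calls in WT (1 without WT DIFF replicate 2, 2 without WT PRO replicate 2 or WT DIFF replicate 1, 3 without WT PRO replicate 1, WT DIFF replicate 3 or a p27KO DIFF replicate), 0 to 4 in p27KO (0 without p27KO DIFF replicate 2, 2 without p27KO PRO replicate 2 or p27KO DIFF replicate 1, 3 without p27KO PRO replicate 1, WT PRO replicates 2 or 3 or a WT DIFF replicate) and 0 at own promoters. The limma counts of 0 for genotype and interaction stayed 0 in all settings.

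Regions closed in WT fell from 3 to 1 with equal list length and with a window of 10 kb, and those closed in p27KO from 5 to 2 with equal list length, −log10 q-value of at least 5 or a window of 10 kb. Regions opened in p27KO rose from 1 to 2 with equal list length or the q-value limit, and opened regions became 0 in WT and in p27KO with a window of 10 kb. Presence in only 1 genotype rose from 0 to 1 for WT at PRO with a window of 100 kb and for p27KO at DIFF with the q-value limit. Leaving out 1 library gave 3 to 5 regions closed in WT (5 without WT DIFF replicate 3), 1 to 2 opened in WT (2 without WT PRO replicate 3 or WT DIFF replicate 2), 7 to 10 closed in p27KO (8 without p27KO PRO replicate 1, 10 without p27KO DIFF replicate 2) and 1 to 2 opened in p27KO (2 without p27KO PRO replicate 1 or p27KO DIFF replicate 2). For regions in only 1 genotype it gave 0 to 3 for p27KO at PRO (3 without WT PRO replicate 2, 2 without WT PRO replicate 3), 0 to 2 for WT at PRO (2 without p27KO PRO replicate 2), 0 to 2 for p27KO at DIFF (2 without p27KO DIFF replicate 1) and 0 to 1 for WT at DIFF (1 without WT DIFF replicate 2 or 3).

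With summits within 250 bp, the Cdkn2b promoter difference went from -0.04 to -1.35 at PRO and from 0.36 to 1.66 in p27KO (adjusted p = 0.156). Away from own promoters, only called values were checked for a change of sign, and none changed. Changes of sign were seen at own promoters, in values that were not called. Differences DIFF minus PRO are named in WT or in p27KO, and p27KO minus WT at PRO or at DIFF. When ranking by −log10 p-value, the difference was -0.02 at the Cdkn1a first start in p27KO, -0.09 at the Ink4a start in WT, -0.09 at the Arf start at PRO, 0.02 at the Arf start at DIFF, -0.13 at Cdkn2c in WT, -0.02 at Cdkn2c in p27KO and -0.02 at Cdkn2d in WT. On log2 fold enrichment, the difference was -0.01 at the Cdkn1a second start in WT, -0.24 at the Ink4a start in WT, 0.21 at the Arf start at DIFF, -0.07 at Cdkn2b in WT, 0.07 at Cdkn2b at PRO, -0.20 at Cdkn2c in WT, 0.09 at Cdkn2c at PRO, 0.04 at Cdkn1c at PRO, -0.02 at Cdkn2d in WT and 0.08 at Cdkn2d at PRO. With a peak in all 10 libraries, the difference was -0.01 at the Ink4a start in WT, 0.00 at the Arf start at DIFF and -0.00 at Cdkn2c in WT. With the replicate block, the difference was -0.05 at the Arf start at PRO, 0.04 at Cdkn2c at PRO and 0.04 at Cdkn1c at PRO. With the crossed block, the difference was -0.05 at the Arf start at PRO, 0.04 at Cdkn2c at PRO and 0.04 at Cdkn1c at PRO. With equal list length, the difference was 0.00 at the Arf start at DIFF. With −log10 q-value of at least 5, the difference was 0.00 at the Arf start at DIFF. Leaving out 1 library gave -0.23 to 0.23 at the Cdkn1a last start in WT, -0.15 to 0.18 at the Ink4a start in WT, -0.18 to 0.51 at the Ink4a start in p27KO, -0.07 to 0.08 at the Arf start at PRO, -0.18 to 0.23 at the Arf start at DIFF, -0.08 to 0.35 at Cdkn2b in WT, -0.16 to 0.07 at Cdkn2b at PRO, -0.03 to 0.39 at Cdkn2b at DIFF, -0.04 to 0.10 at Cdkn2c in WT, -0.11 to 0.09 at Cdkn2c at PRO, -0.00 to 0.22 at Cdkn2c at DIFF, -0.09 to 0.08 at Cdkn1c at PRO and -0.22 to 0.15 at Cdkn2d at PRO.

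With the replicate block, calls over all regions were 13033 in WT and 8292 in p27KO, and among the CDK inhibitor regions 5 and 4. The crossed replicate block for p27KO, chosen after seeing the data, gave 8579 calls over all regions and 4 among these. Depth per library is not in the files, so a missing peak may be a peak under the calling limit.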
